A study of Homo sapiens with 2 samples.

Results

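The regions described here are the H3K4me3 peaks of chromosome 1 in HEC-1-B cells, a long-established human line from a uterine (endometrial) adenocarcinoma. One library came from wild-type cells and the other from cells labelled as a ZNF143 knockout, with 1 library per genotype. Both were made by chromatin immunoprecipitation and sequencing with the same antibody against H3K4me3, and the labels give both the same culture medium. The labels do not say whether the knockout cells are 1 clone, and peak lists of a histone mark do not check the loss of ZNF143. Members were chosen by sequence name alone, and gave 1982 of 20567 wild-type regions and 1914 of 20509 knockout regions. They were then divided at 27.17, 121.4 and 142.5 Mb of the hg19 build. The first boundary was chosen on these same data, from the ratio of peak significance between the lists, so the size of the change there is a description and no test is attached to it.

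H3K4me3 is trimethylation of lysine 4 on histone H3 and is concentrated at the starts of active genes and at CpG islands. ZNF143 is a zinc-finger transcription factor that binds many promoters, including those of small nuclear RNA genes. The end of the short arm of chromosome 1 is rich in genes and CpG islands, long stretches further along both arms are gene-poor, and the centromere is flanked by satellite repeats. The number of reads that a region gives in such an assay depends on the share of nucleosomes that carry the mark, on the number of DNA copies of the region in the cells, and on the depth of the library. In a peak list these cannot be told apart. No hg19 genome or gene annotation was used here, so regions are named by position, counted from 1, and the labelled cell type was not checked against marker genes.

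The 3 segments are called the distal short arm (up to 27.17 Mb), the rest of the short arm (27.17 to 121.4 Mb) and the long arm (142.5 Mb to the last region). The distal short arm held 411 wild-type and 412 knockout regions, or 15.1 and 15.2 regions per Mb. The rest of the short arm held 692 and 657 regions, or 7.34 and 6.97 per Mb. The long arm held 877 and 841 regions, or 8.22 and 7.88 per Mb. The distal short arm was thus the densest segment in both lists. The knockout list held 1.00 times as many regions as the wild-type list in the distal short arm, 0.949 times in the rest of the short arm and 0.959 times in the long arm, against 0.995 times on the other 21 autosomes. The remaining regions, 2 wild-type and 4 knockout, lay between 121.4 and 142.5 Mb.

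Regions were wider in the knockout list in each segment. In the distal short arm wild-type regions had a median width of 803 bp and knockout regions 926.5 bp. In the rest of the short arm it was 970 bp and 1093 bp, and in the long arm 891 bp and 1016 bp. The other autosomes had 886 bp and 1006 bp. Within one-to-one pairs, which are regions that overlap exactly 1 region of the other list and no other, the log2 width ratio relative to all autosomal pairs had a median of 0.01 in the distal short arm, −0.02 in the rest of the short arm and −0.01 in the long arm. Relative to the other autosomes, widths within pairs were thus nearly level along the chromosome. Covered length per Mb was 13.2 kb in the wild-type and 15.03 kb in the knockout list for the distal short arm, 7.04 and 7.48 kb for the rest of the short arm, and 7.43 and 8.05 kb for the long arm.

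The share of regions with no partner, meaning no overlap of at least 1 bp with the other list, was highest in the distal short arm in the knockout list and lowest there in the wild-type list, the latter not under each overlap rule tried. In the knockout list, 49 of 412 regions of the distal short arm were unshared (11.9%, exact Clopper-Pearson 95% interval 8.93 to 15.4%), against a background of 9.61% over all autosomes. In the rest of the short arm 44 of 657 were unshared (6.70%, 4.91 to 8.89%), and in the long arm 57 of 841 (6.78%, 5.17 to 8.69%). In the wild-type list, 24 of 411 regions of the distal short arm were unshared (5.84%, 3.78 to 8.56%), against a background of 5.56%. In the rest of the short arm the count was 52 of 692 (7.51%, 5.66 to 9.74%), and in the long arm 62 of 877 (7.07%, 5.46 to 8.97%). The distal short arm was near the autosomal background in the wild-type list and somewhat above it in the knockout list, where its interval includes the background. Beyond the boundary the knockout share was below its background and the wild-type share above it, although the wild-type interval of the long arm includes the background. The wild-type order turned with a reciprocal overlap of 50%, which gave 17.5%, 15.8% and 16.6% for the 3 segments, and with regions of a −log10 q of at least 5 the shares were 5.33%, 5.30% and 5.97%. The distal short arm had the highest knockout share under both, with 17.7%, 11.3% and 13.1%, and 9.07%, 5.97% and 6.06%. The backgrounds of 9.61% and 5.56% belong to the 1-bp rule over all regions. None is given for these alternatives, which therefore compare the segments only. The intervals describe counting error alone; how far cultures or immunoprecipitations of 1 genotype differ is unknown.

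**Figure D1:**
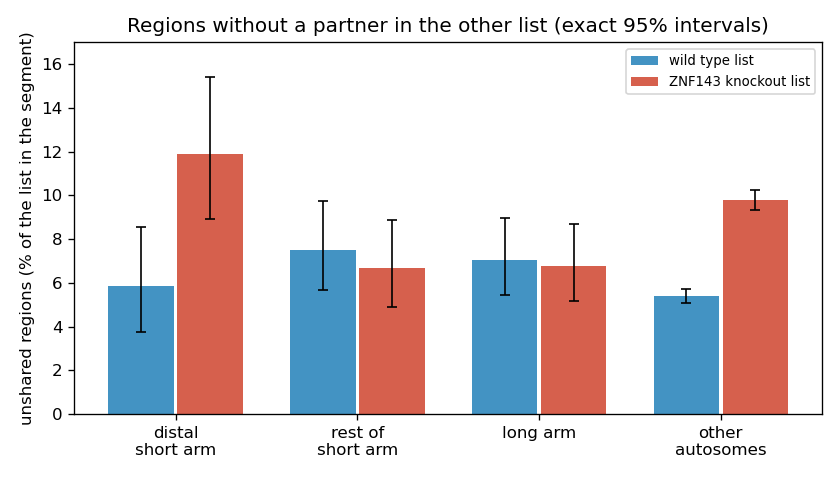
Share of regions without a partner in the other list (bars, percent of the regions of that list in each segment) with exact 95% intervals (whiskers) for the 3 segments and the other autosomes. The knockout bar stands above the wild-type bar in the distal short arm (11.9% against 5.84%) and on the other autosomes (9.80% against 5.39%), while in the rest of the short arm the knockout share was 6.70% and the wild-type share 7.51%.

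Unshared regions were more frequent among weak regions. Strength was read from the authors' −log10 q, the adjusted significance of a peak over its local background. Among wild-type regions with a −log10 q under 10, 18 of 58 were unshared in the distal short arm (31.0%), 44 of 80 in the rest of the short arm (55.0%) and 52 of 109 in the long arm (47.7%). Among knockout regions under 10 the distal short arm had the highest share and not the lowest, with 30 of 57 (52.6%), 22 of 51 (43.1%) and 26 of 69 (37.7%). At a −log10 q of at least 10, the wild-type shares were 1.70%, 1.31% and 1.30%, against 1.24% on the other autosomes. The knockout shares were 5.35%, 3.63% and 4.02%, against 4.11%. Compared with the segments beyond the boundary, the distal short arm thus had a lower wild-type share among the weaker regions and not among the stronger ones. Its knockout share was higher than theirs in both. Compared with the other autosomes, its knockout share was not higher among the weaker regions.

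A few unshared regions were strong in their own list. The unshared wild-type region of highest −log10 q lay in the rest of the short arm at chr1:45965959-45966589, with a −log10 q of 203 and a summit pileup of 265 fragments. The nearest knockout region was 9084 bp away. In the distal short arm the corresponding wild-type region was chr1:17012534-17012702 (−log10 q 34.6), and in the long arm chr1:205414083-205414335 (30.3). In the knockout list the highest were chr1:16085304-16086135 in the distal short arm (102), chr1:38477561-38478156 in the rest of the short arm (94.4, with a wild-type region 224 bp away) and chr1:183582567-183584158 in the long arm (124, nearest wild-type region 19721 bp away). Each segment thus held at least 1 strong knockout region that overlapped no wild-type region.

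One-to-one pairs allowed the strength of the same region to be compared between libraries. Of the 1982 wild-type members, 1646 formed such pairs, 198 overlapped in other combinations and 138 were unshared. Of the 1914 knockout members, 116 overlapped in other combinations and 152 were unshared. The pairs numbered 339 in the distal short arm, 574 in the rest of the short arm, 731 in the long arm and 2 in the gap between them. No filter on strength was applied. For each pair the knockout −log10 q was divided by the wild-type one, the log2 was taken, and the median of all 15888 autosomal pairs, 0.84, was subtracted. This centring removes a single value common to all autosomal pairs. An effect of sequencing depth that varies with the strength of a region would remain in the ratios.

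In the distal short arm the median −log10 q of paired regions was 159 in wild-type and 334 in knockout cells. In the rest of the short arm it was 226 and 354, and in the long arm 171 and 274. The wild-type level was thus highest in the rest of the short arm, and the knockout level was nearly the same in both parts of the short arm. After centring, the median log2 ratio was 0.04 in the distal short arm (quartiles −0.17 and 0.23), −0.19 in the rest of the short arm (−0.36 and −0.03) and −0.19 in the long arm (−0.37 and 0.02). On a linear scale these medians are 1.03, 0.878 and 0.879 times the autosomal median. The distal short arm exceeded the rest of the short arm by 0.23, while the long arm and the rest of the short arm differed by 0.00. The quartile ranges of the 3 segments overlap.

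Pairs below the autosomal median, a limit that by construction 50.0% of all autosomal pairs fall under, were 149 of 339 in the distal short arm (44.0%), 451 of 574 in the rest of the short arm (78.6%) and 535 of 731 in the long arm (73.2%). Over all autosomal pairs the quartiles were −0.26 and 0.22. In the rest of the short arm and in the long arm the upper quartile thus moved further than the lower one. Pairs lower by at least 0.5 made up 13.0%, 16.0% and 17.6% of the 3 segments, against a background of 13.8% over all autosomes. Pairs higher by at least 0.5 made up 13.3%, 5.57% and 8.62%, against 11.1%. The share of such low pairs was somewhat above the background in the long arm (exact 95% interval 14.95 to 20.6%), and the interval of the rest of the short arm (13.1 to 19.3%) includes it. The share of high pairs was below the background in both. By pileup, the number of fragments stacked at the summit, 6.78%, 11.7% and 11.6% were lower by at least 0.5, against 8.59% of all autosomal pairs, and 10.0%, 4.70% and 5.88% were higher, against 8.81%. By the authors' fold over local background, 4.13%, 4.88% and 5.34% were lower, against 3.80%, and 2.65%, 1.57% and 3.01% were higher, against 3.50%. Since the first boundary was placed on this ratio, nothing is read from these shares about the boundary itself.

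**Figure D2:**
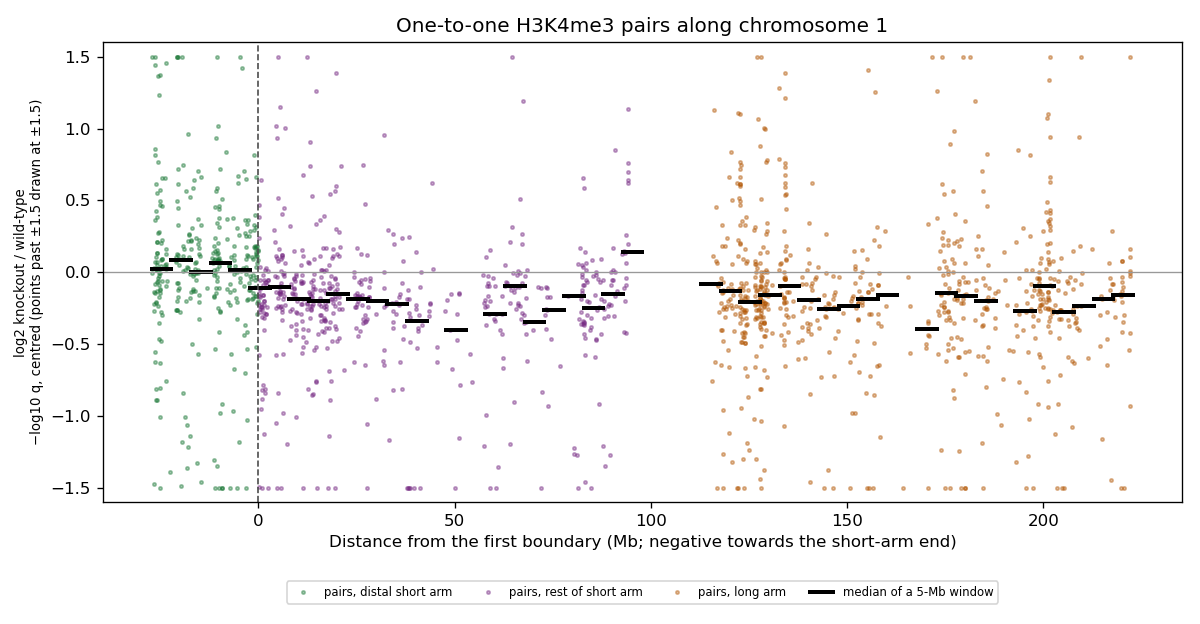
Centred log2 ratio of knockout to wild-type −log10 q (vertical axis) for one-to-one pairs of the 3 segments (points), by distance from the first boundary in Mb (horizontal axis, dashed line at 0), with medians of 5-Mb windows that hold at least 10 pairs (black bars). The windows before the line have medians between 0.00 and 0.08, and those wholly beyond it, leaving out those that contain another boundary, between −0.40 and −0.09.

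The pairs next to the first boundary are described singly. Since the boundary was placed on this ratio, a difference between its sides was fixed in advance and does not test it. The last 5 pairs before it had centred log2 ratios from −0.20 to 0.16. The last of them, chr1:27152828-27154052, had a −log10 q of 274 in wild-type and 541 in knockout cells and a ratio of 0.15. The one before it, chr1:27113870-27115328, went from 241 to 480, a ratio of 0.16. The region chr1:27022166-27024069 went from 212 to 401 (0.09), and chr1:26855961-26857224, the strongest of the 5, from 514 to 960 (0.06). Of the 5 pairs, 1 lay below 0, at chr1:26946458-26948420 (129 and 201, ratio −0.20).

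The first 5 pairs beyond the boundary had ratios from −1.49 to 0.24, so the values on either side overlap. The first 3 are a close group within 3 kb. Its central region, chr1:27190545-27191561, went from 134 to 281 (ratio 0.24). The narrower regions beside it went from 34.4 to 21.8 at chr1:27189676-27190104 (−1.49) and from 14.8 to 17.7 at chr1:27191886-27192145 (−0.58). The strong pairs that follow were both below 0. The region chr1:27216078-27217136 went from 391 to 623 (−0.17), and chr1:27226129-27227350 from 391 to 648 (−0.11). Over 10 pairs on each side the medians were 0.08 and −0.15, over 20 pairs 0.11 and −0.17, and over 50 pairs 0.09 and −0.21. Of the 50 pairs before the boundary 22 lay below 0, and of the 50 beyond it 42, against 50.0% of all autosomal pairs by construction.

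Other readouts of the same regions were compared, because −log10 q combines peak height and background. The authors' fold and −log10 p columns together determine the summit pileup and the local background rate the caller expected there. By pileup, the centred medians were 0.03 in the distal short arm, −0.21 in the rest of the short arm and −0.19 in the long arm. By local background rate they were 0.03, −0.23 and −0.21. By fold, which divides the first by the second, they were −0.01, 0.00 and 0.00. Pileup and local rate were thus both lower beyond the boundary, by nearly the same factor. No control library is named in the sources used here, so the local rate may come from the same immunoprecipitated reads, those of the peak included, and how far this ties the 2 values was not tested. These 4 values come from the same 2 libraries and are not independent of each other.

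**Figure D3:**
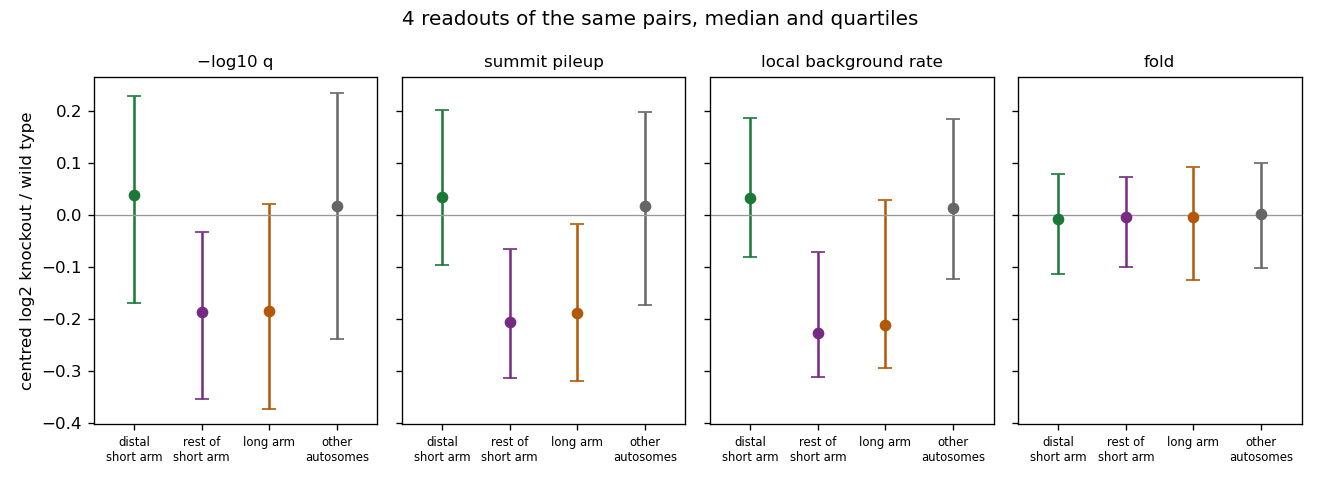
Median (points) and quartiles (bars) of the centred log2 knockout to wild-type ratio of −log10 q, summit pileup, local background rate and fold in the 3 segments and on the other autosomes. The first 3 panels show the rest of the short arm and the long arm between −0.23 and −0.19 and the distal short arm near 0.03, whereas medians by fold lie between −0.01 and 0.00.

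A rate can go no lower than the background the caller assigned to the whole genome. In 29 pairs of the distal short arm (8.55%), 42 of the rest of the short arm (7.32%) and 48 of the long arm (6.57%) both rates stood within 1% of that lowest value, where the centred ratio is 0.19 whatever the region. Without these pairs the rate medians were 0.00, −0.25 and −0.22.

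The shift was similar in moderate and strong regions. All autosomal pairs were divided into 4 classes of about equal size by their mean percentile of −log10 q. In the strongest class, the distal short arm had a median of 0.06 over 114 pairs, the rest of the short arm −0.17 over 168 and the long arm −0.21 over 188, against 0.04 on the other autosomes. In the third class the medians were 0.09, −0.19 and −0.18, against 0.03. In the second class they were 0.06, −0.16 and −0.11, against 0.03. In the weakest class they were −0.26, −0.52 and −0.26, against −0.16, with quartiles as far apart as −1.15 and 0.16 in the rest of the short arm. Among the weakest pairs the long arm thus stood level with the distal short arm by −log10 q, while by pileup their medians were −0.13 and −0.07. Counting error alone gives a single log2 pileup ratio a median standard error of 0.33 in the weakest class of the long arm and 0.09 in its strongest, so single weak pairs carry little information on a shift of this size.

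To ask whether the chromosome has further steps, a cumulative-sum search was run along the ordered pairs, requiring at least 30 pairs on each side and a difference of at least 0.2 between the medians. It found 1 step on chromosome 1. By −log10 q it lay not at the first boundary but 16 pairs beyond it, between chr1:27718797-27719690 and chr1:27815584-27816681, with medians of 0.03 before and −0.19 after. By pileup, and by −log10 q with no limit on extreme values, the split lay between chr1:27152828-27154052 and chr1:27189676-27190104, at the first boundary. By local background rate it lay 1 pair earlier, after chr1:27113870-27115328. The 16 pairs between the 2 positions had a median of −0.13 by −log10 q, −0.13 by pileup and −0.18 by rate, and 11 of them lay below 0. The highest is the last of them, chr1:27718797-27719690, which went from 90.7 to 253 (ratio 0.64). The 3 readouts thus placed the step at different pairs between 27113870 and 27816681. The first boundary was placed on the ratio of −log10 q, so a split near it was fixed in advance and tests nothing. Pileup and local rate enter −log10 q and add no independent check.

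**Figure D4:**
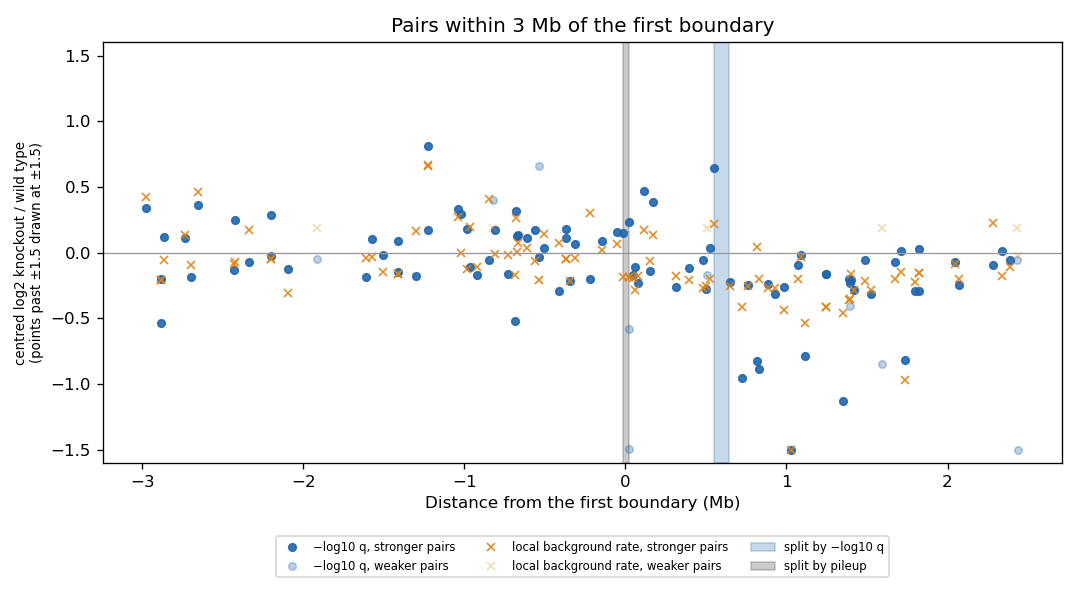
Centred log2 knockout to wild-type ratio of −log10 q (circles) and of the local background rate (crosses) for pairs within 3 Mb of the first boundary (horizontal axis, Mb). Faint symbols are weaker pairs with a mean percentile under 25; grey and blue bands mark the intervals in which the search by pileup and by −log10 q placed the step, and points past the axis limits are drawn at them. The median of the 50 pairs before the boundary was 0.09 by −log10 q and that of the 50 beyond it −0.21.

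The same search gave 3 steps on the other 21 autosomes, 2 on chromosome 10 and 1 on chromosome 11. A step was held by 13.6% of the 22 autosomes, chromosome 1 included, and by 2 of the other 21. The change on chromosome 1, −0.22, was the smallest of the 4. The others measured 0.64 and −0.45 on chromosome 10, on either side of a short stretch, and 0.50 on chromosome 11. On chromosome 1 no second step was found with the smallest difference set at 0.1, or with at least 15 or 60 pairs on a side. The search leaves a stretch once its best single split falls under the set size. A shorter stretch of another level further inside can therefore be missed.

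Searches within single segments gave the largest remaining changes. Within the distal short arm the best split separated medians of 0.04 and 0.04. Within the long arm it lay after chr1:161697051-161697240 and separated −0.16 from −0.20. By local background rate the long arm split elsewhere, after its first 82 pairs, with medians of −0.02 and −0.22, a difference just under the size set for a step. Within the rest of the short arm it lay after chr1:116518478-116519896 and separated 544 pairs with a median of −0.20 from the last 30 pairs before the centromere gap, with a median of 0.00. This difference, 0.20, reaches the size set for a step, but it has the fewest pairs the search allows. The search of the whole chromosome did not reach it, so its absence there is no result about it. The best split of all pairs beyond the first boundary lay after chr1:116694570-116695225 and separated −0.20 from −0.18, which is under the set size. Of the 30 pairs, 14 lay below 0.

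The pairs facing the centromere gap were examined for this reason, a choice made after their values were seen. The 6 pairs of the last 1-Mb bin, chr1:121351911-121386448, had a median centred ratio of 0.67 by −log10 q, 0.66 by pileup and 0.64 by rate, and none lay below 0. Their median −log10 q was 34.3 in wild-type and 96.9 in knockout cells. The last of them, chr1:121386265-121386448, went from 19.1 to 57.7. The other 24 pairs, from 116694570 to 120926273, had a median of −0.05. The strongest region of the rest of the short arm in both lists, chr1:120611205-120612299, belongs to this stretch, with a −log10 q of 753 and 1171. On the other side of the gap, the nearest pairs were chr1:142618906-142619406, with 9.17 and 9.69 (ratio −0.76), and chr1:142890211-142891022, with 342 and 660 (0.11). The first 82 pairs of the long arm, up to 150135385, which the split by rate had set apart, had a median of −0.12 by −log10 q, against −0.20 for the other 649.

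In windows of 5 Mb, the 5 windows wholly before the first boundary that held at least 10 pairs had medians from 0.00 to 0.08. The 35 such windows wholly beyond it that contain no other boundary ran from −0.40 to −0.09, with a median of −0.19, and 35 lay below 0. A median of −0.1 or lower occurred in 33 of the 43 windows of chromosome 1 with at least 10 pairs. The background was 25.6% of windows over all autosomes, chromosome 1 included, and 91 of 442 windows on the other autosomes. Since the first boundary was placed on this ratio, an excess of low windows beyond it was fixed in advance and tests nothing. The lowest windows were those from 75 to 80 Mb (11 pairs, −0.40) and from 195 to 200 Mb (10 pairs, −0.40), which hold few regions. The windows from 90 to 95 Mb (31 pairs, −0.10), 160 to 165 Mb (49 pairs, −0.09) and 225 to 230 Mb (71 pairs, −0.10) were the highest beyond the boundary apart from the one from 120 to 125 Mb (18 pairs, 0.14) and the one from 140 to 145 Mb (13 pairs, −0.08), both of which contain a boundary. The 4 windows with under 10 pairs were left out of these counts.

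Pairs higher by at least 0.5 were counted in bins of 1 Mb. Among 203 bins with pairs, 7 held 5 or more of them. Such counts rise with the number of pairs in a bin, and 11.1% of all autosomal pairs were higher by at least 0.5. No such bins of other autosomes are set beside them. The bin from 149 to 150 Mb held 10 among 26 pairs, with a median of 0.27 by −log10 q, 0.23 by pileup and 0.08 by rate. Its median −log10 q was 78.8 in wild-type and 210 in knockout cells. The bin from 161 to 162 Mb held 9 among 35 pairs, with a median of −0.05. The bin from 228 to 229 Mb held 6 among 35, with a median of 0.07. The remaining bins were those from 0 to 1 Mb (6 among 20), 6 to 7 Mb (5 among 24), 16 to 17 Mb (5 among 29) and 121 to 122 Mb (5 among 8). Pairs lower by at least 0.5 were more evenly spread, with at most 5 in any bin. These bins were picked for their counts and carry no test.

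The longest run of regions on the chromosome with midpoints no more than 5 kb apart lay in the bin from 228 to 229 Mb. Between 228745995 and 228784328 the wild-type list held 18 regions with a median spacing of 2226 bp, and 12 of the 17 spacings lay between 2100 and 2400 bp. The knockout list held 19 regions there with a median spacing of 2217 bp, and 14 of 18 spacings lay in that range. The regions were weak, with a −log10 q from 5.14 to 33.3 in the wild-type and from 10.3 to 55.5 in the knockout library. Over 14 one-to-one pairs the median centred ratio was 0.31 by −log10 q, with single pairs from −0.41 to 0.94 and 9 of 14 above 0. By pileup the median was 0.30, with 13 of 14 above 0. The 20 pairs on each side of the run had a median of −0.18 by −log10 q, with 13 of 40 above 0. By pileup their median was also −0.18, with 10 of 40 above 0. By construction about 50% of all autosomal pairs lie above 0. No test is attached to these counts. What lies at these positions was not looked up, because no hg19 annotation was used.

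Single pairs differed much more than the segments did. In the distal short arm the lowest ratio among pairs with a mean percentile of at least 25 was −2.54, at chr1:23880967-23881380, where −log10 q went from 53.8 to 16.5 while the pileup was 127 and 133 fragments. The highest was 2.23, at chr1:859004-860598, from 12.1 to 102. In the rest of the short arm the lowest was −2.86, at chr1:38411948-38412972, from 270 to 66.2, with pileups of 273 and 80. The highest was 1.54, at chr1:91852808-91853078, from 22.2 to 115. In the long arm they were −3.89 at chr1:182758414-182759296, from 73.5 to 8.84, and 4.22 at chr1:208417204-208417961, from 5.15 to 171 with pileups of 11 and 276. These pairs are the extremes of their segments, and with 1 library per genotype their spread between replicates is unknown.

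The strongest region of each segment overlapped between the lists, and so did the widest in the distal short arm and the long arm. In the distal short arm the strongest was chr1:16939124-16940404, with a −log10 q of 1397 in wild-type and 2632 in knockout cells. In the long arm it was chr1:145209084-145210169, with 891 and 1439. The widest was chr1:934436-937289 in the distal short arm (2854 bp in wild-type and 2904 bp in knockout cells) and chr1:155531577-155534304 in the long arm (2728 and 2784 bp). In the rest of the short arm the widest region differed between the lists, at chr1:43423116-43425339 in the wild-type list (2224 bp) and at chr1:82265668-82269018 in the knockout list (3351 bp, overlapping 2 wild-type regions).

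Set among the other autosomes, the 2 segments beyond the first boundary stood low. Autosome medians ran from −0.34 on chromosome 8 to 0.22 on chromosome 13. Chromosomes 8 and 9 (−0.28) were lower than the rest of the short arm and the long arm of chromosome 1, and chromosome 21 (−0.15) was next above them. The distal short arm, at 0.04, fell between chromosomes 14 (0.03) and 12 (0.04). Over the whole of chromosome 1 the median was −0.15, so the value of the whole chromosome mixes 2 levels.

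**Figure D5:**
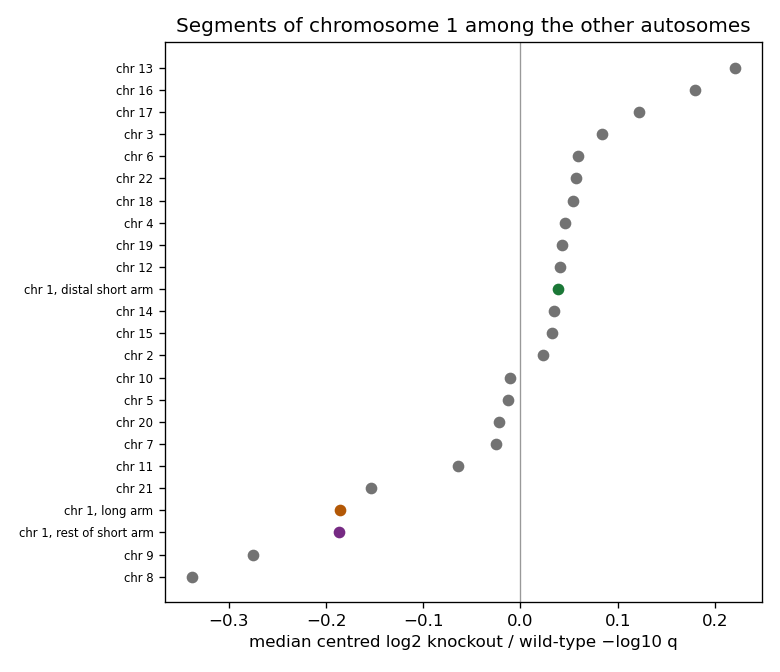
Median centred log2 knockout to wild-type ratio of −log10 q (horizontal axis) for the 3 segments of chromosome 1 (coloured) and each of the other autosomes taken whole (grey), sorted. The rest of the short arm and the long arm lie at −0.19, next above chromosomes 9 (−0.28) and 8 (−0.34), and the distal short arm lies at 0.04 among most other autosomes.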

How the data were processed

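The deposited files are 1 narrowPeak list of 10 columns per library, without a header. Per the submitters' processing notes, the tools used include Bowtie2, SAMtools 1.12, MACS2 and deepTools and the build is hg19 (GRCh37). Their roles are not given in the sources used here, nor is a control library. The deposited columns used are the authors' fold (a ratio over local background), −log10 p and −log10 q. The deposited score is 10 times the −log10 q without decimals, to within 1 unit, and was not used. The deposited summit offset, another value per region, was not used either.

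Regions were assigned to segments by midpoint. Pileup and local rate were solved from fold and −log10 p, with relative errors of p of at most 1.76e-05 and 2.67e-05. The lowest rate, a measure of depth, was 1.40 fragments for wild type against 3.25 for the knockout, 2.31 times as high. Total read counts were not used here. The step search limited values to within 1 of the chromosome's median. It and the pileup solution were tested on simulated data. Members, boundaries, named regions and alternatives were chosen with earlier results of these data known. The regions named were the 5 pairs on each side of the first boundary, 2 on each side of other splits of the whole chromosome and of the gap, and per segment the strongest, widest and strongest unshared region and the extreme pairs with a mean percentile of at least 25. No test was made, since each genotype is a single library. Scripts ran in Python 3.11.15 with scipy 1.17.1, pandas 2.3.3, matplotlib 3.10.9 and numpy 2.4.6.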

Additional observations from a re-analysis of the deposited data

Results flagged for a closer look

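Regions outside the 3 segments entered no comparison between segments, although 2 pairs between them entered the centring, the step search along chromosome 1 and its windows, and no control library was used here to set them against. A limit of 3, which a count of 0 allows, served for flagging alone and does not compare the lists. The knockout list held 4 regions on chromosome 1 between 121.4 and 142.5 Mb, and the wild-type list held 2. One of them, chr1:121484091-121485433, had the highest −log10 q of all autosomal regions in both lists, 5758 in wild-type and 12516 in knockout cells, with pileups of 6209 and 14245 fragments. Its centred log2 ratio was 0.28 by −log10 q and 0.34 by local background rate. Unlocalised sequences of chromosome 1 held 7 wild-type regions, with a −log10 q from 6.08 to 255, and 5 knockout regions, from 18.1 to 462.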

How the results depend on the processing

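No paired analysis was possible because neither genotype had a second library, and no replicate could be left out. Across 32 values with 132 alternatives, 91 stayed within their interval or factor, and the number of regions did so in each of its 12. For the number of regions the factor was 1.5, a wide limit. In the distal short arm of the wild-type list, a fall from 411 to 328 on merging regions within 1 kb stayed within it. By fold, the segment medians became −0.0082 (reversed from 0.04) in the distal short arm, −0.0044 in the rest of the short arm and −0.0047 in the long arm, and the difference between both parts of the short arm reversed from 0.23 to −0.0038. Fold divides pileup by the local rate, so a change common to both cancels by construction. By local rate, an alternative added after seeing the data, the medians beyond the boundary were −0.23 and −0.21. The number of steps was 0 by fold and 0 with a smallest difference of 0.3. The last pair before the step moved from 27.72 Mb to 27.15 Mb by pileup and with no limit on values, and to 27.12 Mb by local rate. By fold, 60% of the windows wholly beyond the first boundary that contain no other boundary lay below 0, against 100% by −log10 q.

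Median widths after merging regions within 1 kb were 1155.5, 1172.5 and 1112 bp in the distal short arm, rest of the short arm and long arm of the wild-type list, and 1269, 1285.5 and 1234 bp in the knockout list. Under a reciprocal overlap of 50% the unshared shares were 17.5%, 15.8% and 16.6% in the wild-type and 17.7%, 11.3% and 13.1% in the knockout list. Counting regions within 1 kb as shared gave 4.57% and 4.88% beyond the boundary in the knockout list. A −log10 q of at least 5 gave 5.30% in the rest of the short arm of the wild-type list. Shares of pairs lower by at least 0.5 became 6.78%, 11.7% and 11.6% by pileup, 4.13%, 4.88% and 5.34% by fold, and 4.49%, 10.2% and 12.3% among stronger pairs. Shares of higher pairs became 2.65%, 1.57% and 3.01% by fold. In the long arm they were 5.88% by pileup and 5.13% among stronger pairs. For these moves other than those by fold the cause was not tested. No autosomal share is given for the changed overlap rules, the −log10 q limit of 5 or the stronger pairs. Those values compare the segments only.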
